A study of Mus musculus with 24 samples.

Results

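The luminal lineage transcription factors described here are 10 genes, Gata3, Foxa1, Cited1, Spdef, Elf3, Elf5, Ehf, Stat5a, Grhl1 and Grhl2, which were taken by name after Entrez identifiers were matched to mouse symbols. They are 10 of the 27080 genes with counts, and each was found once. Mammary basal cells of C57BL/6 females without treatment were sorted by flow cytometry into Lgr5+Tspan8hi, Lgr5+Tspan8-, Lgr5-Tspan8hi and Lgr5-Tspan8- subpopulations. Lgr5 is a receptor for R-spondins that enhances Wnt signalling, and Tspan8 is a membrane tetraspanin. Chromatin immunoprecipitation followed by sequencing (ChIP-seq) measured H3K4me3, which sits at promoters in use or kept ready, and H3K27me3, which Polycomb complexes place on silenced genes, in 2 libraries of each subpopulation and mark. The question asked of these genes was how the regulators of the neighbouring luminal lineage are marked in cells of the basal lineage.

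The mammary epithelium has an inner luminal and an outer basal layer. Luminal cells comprise hormone-sensing cells, which carry the oestrogen receptor, and progenitors that form milk-secreting alveoli during pregnancy. Both lineages are set by transcription factors, and genes of another lineage can be held silent by H3K27me3, by both marks together at one promoter, or without either.

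Total counts per library ran from 1472251 to 4740371 for H3K4me3 and from 2639862 to 6972189 for H3K27me3. Nothing in the labels ties the 2 libraries of a subpopulation to different animals, and the p-values then reflect only the spread between libraries, which may be technical. The genes used for sorting were looked at first. H3K4me3 at Tspan8 was 79.9 ± 8.79 CPM in Tspan8hi and 24.9 ± 4.13 CPM in Tspan8- libraries, and Lgr5 carried 74.7 ± 24.8 CPM of H3K27me3 over Lgr5+ libraries and 124 ± 28.0 CPM over Lgr5- ones (SD, n = 4 each). The Lgr5 sides overlapped in both marks and Lgr5 was not called in either (edgeR adjusted p = 0.0537 for H3K27me3 and 0.961 for H3K4me3), and its H3K4me3 averaged 77.2 CPM in Lgr5+Tspan8hi against 76.7 CPM in Lgr5-Tspan8hi libraries. CPM express a count relative to the library total, scaled here by normalization factors. The labelled basal identity was checked at its own genes, and the basal keratin genes Krt5 and Krt14 had 139 and 130 CPM of H3K4me3. The luminal keratin genes Krt8 and Krt18 had 107 and 67.1 CPM, so the mark was not confined to the basal keratins. The 16 basal structural genes had a median H3K4me3 percentile of 94.2 among all 25189 genes with a symbol, and 16 luminal structural genes one of 60.2. Among markers of other cell types, 8 fibroblast markers had one of 51.8, 8 endothelial markers 37.8 and 8 immune markers 21.2. Summed H3K4me3 over the fibroblast markers was 278 and 289 CPM in the Lgr5-Tspan8- libraries, and 179 to 230 CPM in the others. The share of genes without a count in H3K4me3 was 8.53% to 21.6% in Tspan8hi and 2.44% to 8.70% in Tspan8- libraries, and it was highest in Lgr5-Tspan8hi replicate 1. That library was also apart in H3K27me3, at 15.5% against 4.14% to 5.75% in the other 7 libraries. Lgr5+Tspan8hi replicate 1 also stood apart, with the highest summed H3K4me3 over luminal structural genes (953 CPM, against 779 to 897 CPM in the other 7) and the lowest over basal structural genes (1384 against 1491 to 1784 CPM).

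H3K4me3 values act as counts in a window around a gene start, since neighbouring genes with starts under 1 kb apart had near-equal counts, and H3K27me3 values grow with gene length. H3K4me3 levels are therefore compared between genes as CPM at the start, and H3K27me3 levels as CPM per kb of annotated gene span. For a gene with several starts, the sources used here do not give which one was counted. Trp63, the p63 gene of basal cells, whose short form uses an internal start, had only 1.76 ± 0.84 CPM of H3K4me3 (SD, n = 8), and the level at each of its starts was not measured separately. Low H3K4me3 at a gene below is a low value at the counted start.

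The promoters of the factors at the ends of both scales are shown first, because CpG-rich promoters are the usual sites of both marks. Each is the 250 bases before a RefSeq start on GRCm38.p6, in the gene's own direction, with CpG dinucleotides in capitals. Foxa1 carried the most H3K27me3 per kb, Stat5a the least, and Gata3 the most H3K4me3. Elf5, with the least H3K4me3, was added after its values were seen. The starts shown for Gata3 (9878600) and Foxa1 (57546111) lie inside their annotated spans, which end at 9887953 and 57548029. The start shown for Stat5a (100860484) also lies inside its span, which begins at 100859351. Stat5a and Elf5 each have another RefSeq start, and the one shown is richer in CpG at Stat5a and poorer at Elf5. Whether the counted start is the one shown is unknown.

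Foxa1, chr12:57546112-57546361, minus strand: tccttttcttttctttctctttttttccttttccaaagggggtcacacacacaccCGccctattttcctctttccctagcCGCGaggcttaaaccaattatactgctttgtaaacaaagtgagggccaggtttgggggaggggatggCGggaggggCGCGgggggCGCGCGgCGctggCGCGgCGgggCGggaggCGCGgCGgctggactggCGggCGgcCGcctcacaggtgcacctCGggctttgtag

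Stat5a, chr11:100860234-100860483, plus strand: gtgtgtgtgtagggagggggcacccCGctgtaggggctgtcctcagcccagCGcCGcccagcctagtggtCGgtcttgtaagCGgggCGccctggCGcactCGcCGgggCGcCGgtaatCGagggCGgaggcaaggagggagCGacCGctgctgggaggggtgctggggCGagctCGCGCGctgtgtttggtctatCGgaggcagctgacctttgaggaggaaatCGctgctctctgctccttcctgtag

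Gata3, chr2:9878601-9878850, minus strand: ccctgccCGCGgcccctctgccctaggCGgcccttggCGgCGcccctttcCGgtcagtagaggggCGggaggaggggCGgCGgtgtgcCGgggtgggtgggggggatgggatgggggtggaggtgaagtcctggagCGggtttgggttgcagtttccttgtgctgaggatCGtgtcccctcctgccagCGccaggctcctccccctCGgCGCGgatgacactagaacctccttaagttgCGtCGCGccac

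Elf5, chr2:103411848-103412097, plus strand: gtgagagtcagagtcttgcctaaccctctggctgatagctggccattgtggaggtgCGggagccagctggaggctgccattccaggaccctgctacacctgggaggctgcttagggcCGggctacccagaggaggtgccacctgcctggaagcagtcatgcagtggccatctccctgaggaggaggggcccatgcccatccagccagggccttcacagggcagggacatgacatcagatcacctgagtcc

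In windows of 300 bases (250 before to 50 after a start), Foxa1 held 26 CpG and Gata3 22. The Stat5a start shown held 27 and a second start 5. Elf5 held 3 CpG at the start shown and 10 at its second start, against a median of 7 and a 90th percentile of 31 over all 32851 promoters. RefSeq promoters matched 8 of the 10 factors, with 13 starts in all. The other starts held 35 and 0 CpG at Grhl1, 18, 14 and 32 at Cited1, 12 at Elf3 and 7 at Spdef. Of 5 motifs searched on both strands, the FOXA motif TGTTTAC was in the Foxa1 promoter and in 3.65% of all promoters, and the ETS motif CAGGAAG was in both Stat5a promoters and 1 of Cited1, and in 13.3% of all. The grainyhead motif AACCGGTT (0.146% of all promoters), the STAT motif TTCNNNGAA (8.3%) and the GATA motif AGATAA (11.2%) were in none of the 13 windows. Overlaps between motifs were not removed.

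The 10 factors did not carry 1 common pattern of marks. Gata3 and Grhl2 were in the top 10% of genes by H3K4me3 and below the median in H3K27me3 per kb, a class that holds 9.09% of all genes. Elf3 and Stat5a had H3K4me3 between the median and the top 10%, also with H3K27me3 below the median (30.2% of genes). Foxa1 and Cited1 had H3K4me3 above the median together with H3K27me3 in the top 10% (2.03% of genes). The classes use mean levels, and Foxa1 and Elf3 lay near the H3K4me3 median. Foxa1 was at the 53.6th percentile by its mean and at the 49.5th in its lowest library. For Elf3 these were the 53.7th and the 48.1st. Elf5, Ehf and Spdef had H3K4me3 below the median and H3K27me3 between the median and the top 10% (31.3% of genes), and Grhl1 had H3K4me3 above the median with H3K27me3 in that same middle range (8.7%). None was low in both marks (10.7% of genes), and none had low H3K4me3 with H3K27me3 in the top 10% (7.97%). In bulk chromatin a mark in fewer cells and less of it per cell cannot be told apart, nor can both marks on the same alleles and each mark in different cells.

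**Figure D1:**
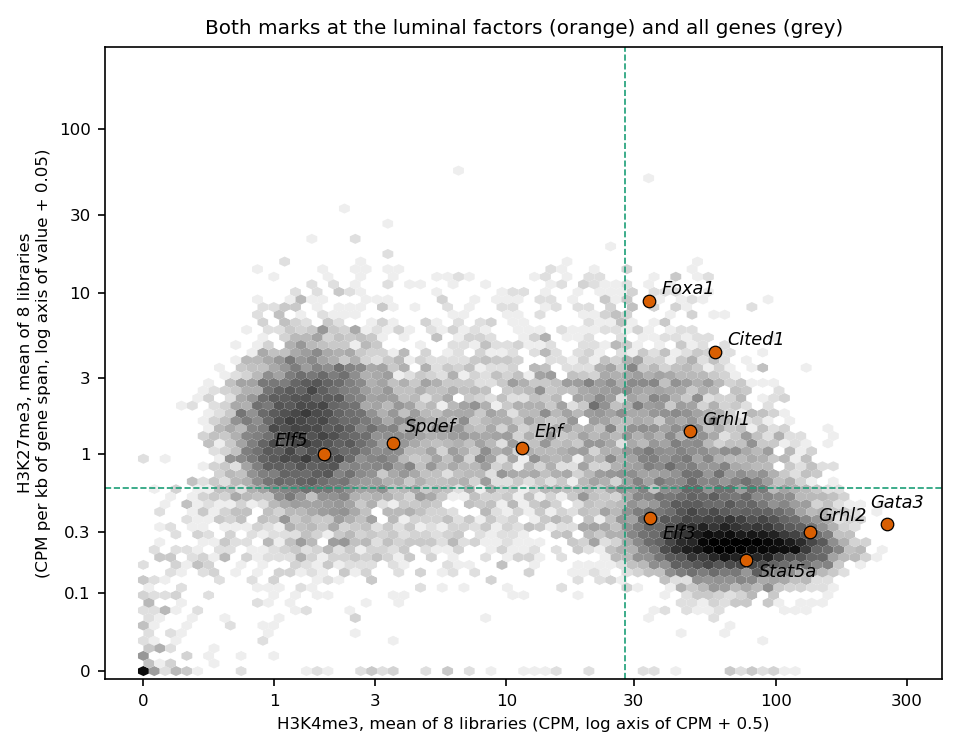
Mean H3K4me3 (x axis, CPM, log axis) against mean H3K27me3 (y axis, CPM per kb of gene span, log axis) of the 10 factors (orange) and of all 25189 genes with a symbol (grey, darker with more genes). Dashed lines mark the medians of all genes, 27.8 CPM and 0.601 CPM per kb; Gata3 lies at the far right and Foxa1 near the top, above both medians.

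Of the factors tied to hormone-sensing cells, Gata3, a zinc finger factor needed for luminal fate, had the highest H3K4me3. It stood at 241 and 278 CPM in Lgr5+Tspan8hi, 255 and 236 CPM in Lgr5+Tspan8-, 263 and 268 CPM in Lgr5-Tspan8hi and 246 and 242 CPM in Lgr5-Tspan8- libraries. The mean of 254 ± 15.2 CPM (SD, n = 8) had only 5 of 25189 genes above it, and all 8 libraries stayed within a narrow band. H3K27me3 at Gata3 was 0.341 ± 0.158 CPM per kb, at the 36.3rd percentile. Gata3 (chromosome 2, 9857078 to 9887953, minus strand, GRCm38.p6) overlaps the non-coding genes 4930412O13Rik and 9230102O04Rik, with 209 and 73.6 CPM of H3K4me3, and which of these genes a read there was counted for is unknown.

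Foxa1, a pioneer factor that opens chromatin for the oestrogen receptor, carried both marks. Its H3K27me3 was 51.4 and 50.4 CPM in Lgr5+Tspan8hi, 73.2 and 61.7 CPM in Lgr5+Tspan8-, 64.6 and 62.4 CPM in Lgr5-Tspan8hi and 83.4 and 84.1 CPM in Lgr5-Tspan8- libraries. Both Lgr5+Tspan8hi libraries lay lowest and both Lgr5-Tspan8- libraries highest. Per kb of its short span (chromosome 12, 57540628 to 57548029, minus strand) the level was 8.97 ± 1.75 CPM (SD, n = 8), at the 98.5th percentile of all genes and the 98.8th among 3968 genes of similar span. H3K4me3 at Foxa1 was 34.3 ± 5.62 CPM, at the 53.6th percentile and between 25.2 and 40.8 CPM in the 8 libraries. The Foxa1 gene overlaps Ttc6 on the other strand, whose annotated start lies 1325 bases from that of Foxa1. Ttc6 had 2.16 CPM of H3K4me3, and whether that annotated start was the one counted is unknown.

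Cited1, a co-regulator of the oestrogen receptor on the X chromosome (102247378 to 102252181, minus strand), was the second factor with both marks. Its H3K4me3 was 59.8 ± 10.2 CPM, at the 71.7th percentile, and its H3K27me3 4.36 ± 0.644 CPM per kb, at the 95.5th percentile (SD, n = 8). Among genes of similar span its H3K27me3 was at the 91.5th percentile. Its H3K27me3 was lowest in Lgr5+Tspan8hi replicate 2, at 16 CPM, and highest in Lgr5-Tspan8- replicate 2, at 25.5 CPM.

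Spdef, an ETS factor of secretory and luminal epithelia (chromosome 17, 27714446 to 27731003, minus strand), had little H3K4me3. Its H3K4me3 was 12.7 and 2.17 CPM in Lgr5+Tspan8hi, 3.61 and 0.678 CPM in Lgr5+Tspan8-, 2.25 and 0.780 CPM in Lgr5-Tspan8hi and 4.04 and 2.09 CPM in Lgr5-Tspan8- libraries. The first of these, Lgr5+Tspan8hi replicate 1, was 30 reads, and the other 7 libraries had 1 to 10 reads. H3K27me3 at Spdef was 1.18 ± 0.301 CPM per kb, at the 67.6th percentile.

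Of the alveolar and ETS factors, Elf5, which drives alveolar fate downstream of prolactin, had the lowest H3K4me3 of the 10. It stood at 1.27 and 3.40 CPM in Lgr5+Tspan8hi, 2.52 and 0.678 CPM in Lgr5+Tspan8-, 0 and 0.780 CPM in Lgr5-Tspan8hi and 3.46 and 2.09 CPM in Lgr5-Tspan8- libraries. These are 0 to 11 reads, and the count of 0 allows up to 1.34 CPM, an upper limit of 3 counts that covers counting error only. H3K27me3 at Elf5 (chromosome 2, 103412098 to 103450989, plus strand) was 0.992 ± 0.145 CPM per kb, at the 62.7th percentile, so the gene was low in H3K4me3 without H3K27me3 in the top 10%.

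Ehf, an ETS factor of epithelia, lies next to Elf5, with starts 108823 bases apart (chromosome 2, 103263431 to 103303275, minus strand). Its H3K4me3 was 25.4 and 8.97 CPM in Lgr5+Tspan8hi, 6.85 and 6.10 CPM in Lgr5+Tspan8-, 11.7 and 9.36 CPM in Lgr5-Tspan8hi and 12.7 and 10.9 CPM in Lgr5-Tspan8- libraries. Lgr5+Tspan8hi replicate 1 was again the highest. H3K27me3 was alike along the pair, at 1.1 CPM per kb over Ehf, 1.14 over the non-coding gene A930006I01Rik between them and 0.992 over Elf5, while the next gene, Cat, the catalase gene, had 0.249 CPM per kb. Abtb2, the gene beyond Cat, had 0.701 CPM per kb.

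Elf3, an ETS factor of simple epithelia (chromosome 1, 135253574 to 135258472, minus strand), had 34.5 ± 11.2 CPM of H3K4me3, at the 53.7th percentile, and 0.378 ± 0.177 CPM per kb of H3K27me3, at the 39.5th (SD, n = 8). Its H3K27me3 rested on 1 to 19 reads per library. Stat5a, the signal transducer that acts below the prolactin receptor (chromosome 11, 100859351 to 100885169, plus strand), had 77.7 ± 8.83 CPM of H3K4me3, at the 82.3rd percentile. With 0.186 ± 0.0595 CPM per kb it had the least H3K27me3 of the 10, at the 8.81st percentile. Its annotated start lies 347 bases from that of Stat5b, which had 96.7 ± 15.6 CPM. The counts of the pair differed in both directions between libraries, and how many reads they share is unknown.

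Both grainyhead-like factors, which maintain epithelial junctions, had H3K4me3 above the median of all genes. Grhl2 (chromosome 15, 37232821 to 37363569, plus strand) had 134 ± 14.4 CPM of H3K4me3, at the 97.5th percentile, and 0.302 ± 0.0419 CPM per kb of H3K27me3, at the 31.9th (SD, n = 8). Grhl1 (chromosome 12, 24572232 to 24617391, plus strand) had 48.4 ± 4.53 CPM of H3K4me3, at the 63.0th percentile, and 1.40 ± 0.343 CPM per kb of H3K27me3, at the 72.6th. The pair thus differed in both marks, with the higher H3K4me3 and the lower H3K27me3 at Grhl2.

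Ordered by H3K4me3, the factors ran from Gata3 through Grhl2, Stat5a, Cited1, Grhl1, Elf3, Foxa1, Ehf and Spdef to Elf5. The libraries of Gata3 did not overlap those of Grhl2, nor those of Grhl2 those of Stat5a, and every later neighbour in that order overlapped the next. By H3K27me3 per kb the order was Foxa1, Cited1, Grhl1, Spdef, Ehf, Elf5, Elf3, Gata3, Grhl2 and Stat5a. Foxa1 lay above Cited1, Cited1 above Grhl1, and Elf5 above Elf3 in all 8 libraries of each, and the other neighbours overlapped.

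**Figure D2:**
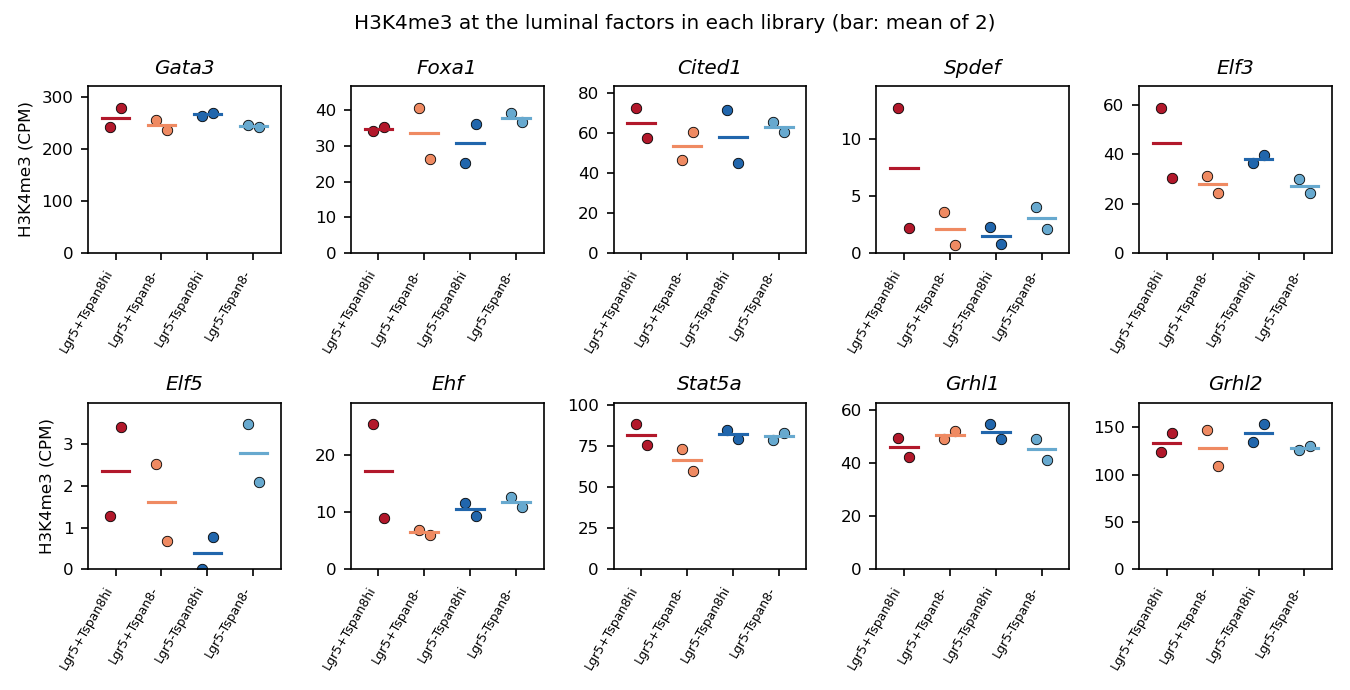
H3K4me3 (y axis, CPM, from 0) of each factor in each library (points), by subpopulation (x axis), with bars at the mean of 2 libraries. Gata3 stays between 236 and 278 CPM throughout, whereas at Spdef, Ehf and Elf3 the first Lgr5+Tspan8hi library stands highest, at 12.7, 25.4 and 58.9 CPM.

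Related gene lists give the scale of these ranks. The median percentiles of the 10 factors were 58.3 for H3K4me3 and 64.1 for H3K27me3 per kb, with 2 of 10 in the top 10% for each mark. Their 19 family relatives, such as Foxa2 and Stat5b, had medians of 63.1 and 62.7. The 20 other luminal regulators, among them Esr1, Tfap2c and Cebpb, had medians of 92.0 for H3K4me3 and 50.8 for H3K27me3, and 11 of 20 were in the top 10% by H3K4me3. Esr1, the oestrogen receptor gene, was at 46.9 CPM and Pgr, the progesterone receptor gene, at 91.6 CPM of H3K4me3, with H3K27me3 at the 60.1st and 43.5th percentiles. The 16 basal transcription factors had medians of 60.8 and 49.8. They also spread widely, with Nfib at 248 CPM and Mef2c at 1.62 CPM of H3K4me3, and Sox2 at 14.3 and Srf at 0.167 CPM per kb of H3K27me3.

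The 16 developmental factors that Polycomb silences in most tissues marked the upper end of H3K27me3, with a median percentile of 98.9 and all 16 in the top 10%. Foxa1 lay within their range, at 8.97 CPM per kb against 3.6 (Gata4) to 14.6 CPM per kb (Gsx2), and so did Cited1 at 4.36. For Cited1 the X chromosome sets another scale: the median H3K27me3 of its 1164 genes was 2.60 CPM per kb, against 0.557 on the other chromosomes, and 17.8% of X-linked genes reached at least the level of Gata4, against 5.77% elsewhere. Cited1 lay above 88.7% of X-linked genes. Among protein-coding genes alone it lay above 95.5% of the 920 on the X chromosome and 96.9% of those elsewhere. Of these protein-coding genes 10.8% on the X chromosome reached at least the level of Gata4, against 4.36% elsewhere. H3K4me3 at the 16 Polycomb-silenced developmental factors had a median percentile of 44.7, with a highest value of 56.8 CPM at Neurog2 and a lowest of 3.62 CPM at Hand1. Foxa2, the endoderm relative of Foxa1, had 11.1 CPM per kb of H3K27me3 and 28.3 CPM of H3K4me3. The 6 milk protein genes had a median H3K4me3 percentile of 15.9 and a median H3K27me3 percentile of 58.3, beside 21.8 and 62.7 for Elf5. The 12 housekeeping genes stood at 92.0 and 29.5, though 1 of them, Ywhaz, had only 0.490 CPM of H3K4me3 at its counted start.

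**Figure D3:**
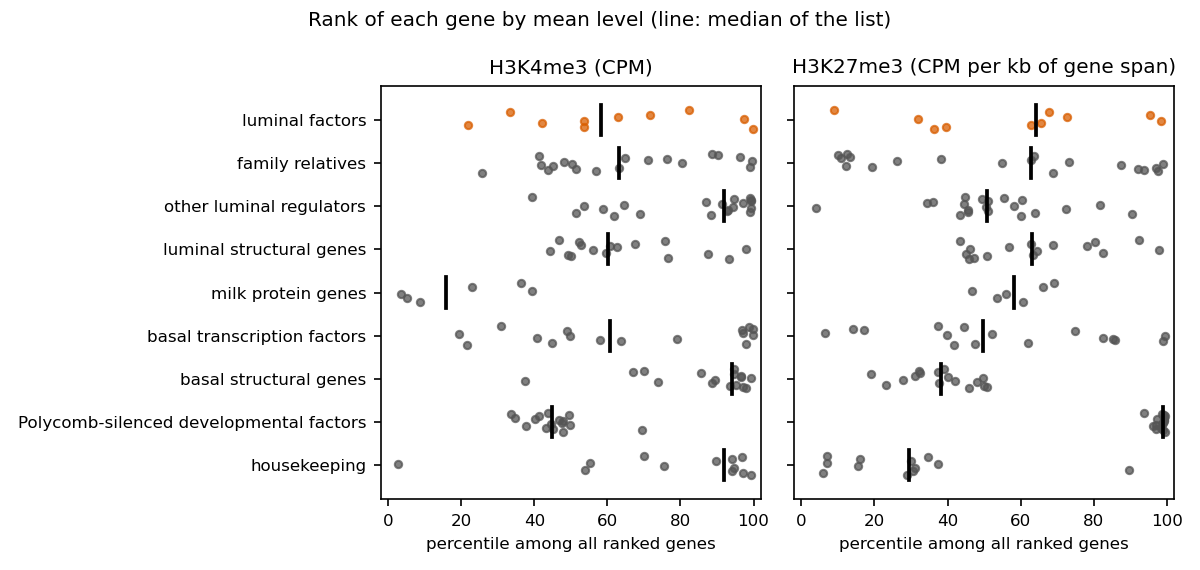
Percentile of each gene (points) by mean H3K4me3 (left, CPM) and mean H3K27me3 (right, CPM per kb of gene span) among all genes with a symbol, in rows by gene list, with a line at the median of each list. The luminal factors (orange) spread from 21.8 to 99.98 in H3K4me3 and from 8.8 to 98.5 in H3K27me3, whereas the Polycomb-silenced developmental factors sit above 93 in H3K27me3.

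The Tspan8 comparison set Tspan8hi against Tspan8- libraries over both Lgr5 states. For H3K4me3, 0 of the 9 factors that passed the filter on low counts were called in edgeR's quasi-likelihood test at an adjusted p under 0.05, where 0.0473% of 19009 tested genes were called; Elf5 did not pass that filter, and its side means were 1.36 ± 1.46 CPM in Tspan8hi and 2.19 ± 1.16 CPM in Tspan8- libraries (SD, n = 4 each). For H3K27me3, 0 of 10 factors were called, where 0.335% of 22099 genes were called. DESeq2 called none for H3K4me3 (0.0337% of genes) and Foxa1 for H3K27me3, where it called 11.9% of the 4452 genes it gave an adjusted p, 2 of the 10 factors among them. At an unadjusted p under 0.05 the test held Elf3 for H3K4me3, among 1122 genes (5.9% of those tested). For H3K27me3 it held Foxa1 and Grhl1, among 2847 genes (12.9%).

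Elf3 had the smallest p of the factors in H3K4me3. It stood at 58.9, 30.3, 36.5 and 39.8 CPM in the 4 Tspan8hi libraries, against 31.4, 24.4, 30 and 24.4 CPM in the 4 Tspan8- libraries. The sides overlapped at 1 library, and the log2 fold change was 0.58 ± 0.22 (SE; edgeR adjusted p = 0.730). Without Lgr5+Tspan8hi replicate 1 it was 0.31 ± 0.25 (adjusted p = 0.965). Ehf had a log2 fold change of 0.61 ± 0.39 (adjusted p = 0.891), which was 0.16 ± 0.47 without that library (adjusted p = 0.993), and Spdef one of 0.34 ± 0.87 (adjusted p = 0.982), which was -0.51 ± 1.19 without it (adjusted p = 0.993). The part of that library's high luminal and low basal structural sums in these values was not tested.

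The other 6 factors tested differed little in H3K4me3 with Tspan8. Their log2 fold changes lay between -0.14 (Foxa1) and 0.15 (Stat5a), with adjusted p from 0.946 to 0.992. At Gata3, 263 ± 16 CPM in Tspan8hi and 245 ± 8.28 CPM in Tspan8- libraries (SD, n = 4 each) gave a log2 fold change of 0.10, with a 95% interval of -0.10 to 0.30. Across the list 8 of 9 were above 0, with a median of 0.11, beside 49.6% above 0 and a median of -0.00 over all genes tested. Family relatives had 14 of 19 above 0 (median 0.09) and housekeeping genes 7 of 11 (0.15). Other luminal regulators had 10 of 20 (0.03) and basal structural genes 5 of 16 (-0.08). Of the 9, Grhl1, Cited1 and Spdef kept their sign in 11 of 13 alternatives each, Foxa1 in 12 and the rest in all 13.

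Foxa1 had the lowest p for H3K27me3 with Tspan8. Its level was 57.2 ± 7.33 CPM in Tspan8hi and 75.6 ± 10.5 CPM in Tspan8- libraries (SD, n = 4 each), and 2 of the Tspan8hi libraries lay above the lowest Tspan8- library. The log2 fold change was -0.40 ± 0.12 (edgeR adjusted p = 0.123), and it passed the threshold in 3 of 13 alternatives, whose adjusted p ran from 0.0203 to 0.433 over all 13. Genes rich in H3K27me3 shifted the same way: of 2181 tested genes in the top 10% by H3K27me3 per kb 81.6% were below 0, with a median of -0.23, against a median of 0.05 for the 18769 others. All 16 Polycomb-silenced developmental factors were below 0, with a median of -0.29. The part of that general shift in the Foxa1 value was not tested. Ttc6, which overlaps Foxa1, had 109 ± 12.4 CPM of H3K27me3 in Tspan8hi and 137 ± 8.35 CPM in Tspan8- libraries.

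The other hormone-sensing factors had log2 differences in H3K27me3 with Tspan8 of -0.26 (Gata3), -0.15 (Spdef) and -0.04 (Cited1), and the alveolar and ETS factors of 0.29 (Stat5a), 0.28 (Elf5), 0.21 (Ehf) and 0.15 (Elf3), where 52.7% of all genes tested were above 0. These signs held with scaling by DESeq2's size factors (RLE) and by loess offsets, but not when single libraries were left out. Over 12 alternatives each, Spdef, Elf5 and Ehf kept their sign in all, Gata3 in 11 (up to 0.01), Stat5a in 10 (down to -0.07), Cited1 in 9 (up to 0.04) and Elf3 in 9 (down to -0.31). None of these 7 was called (edgeR adjusted p from 0.433 to 0.956). Grhl1 was at 0.28 ± 0.12 (adjusted p = 0.327) and Grhl2 at 0.02. Over the 10 factors the median was 0.08, beside 0.02 over all genes tested.

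**Figure D4:**
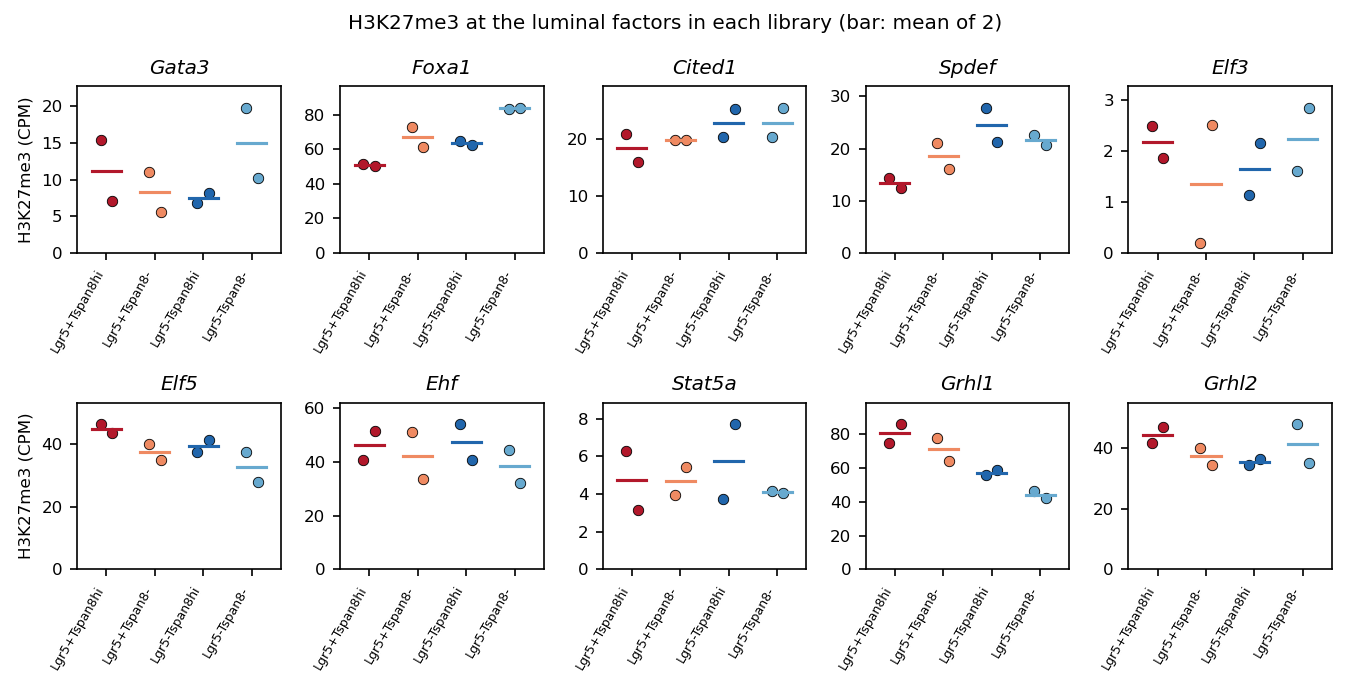
H3K27me3 (y axis, CPM over the gene, from 0) of each factor in each library (points), by subpopulation (x axis), with bars at the mean of 2 libraries. Foxa1 is lowest in Lgr5+Tspan8hi, at 50.4 and 51.4 CPM, and highest in Lgr5-Tspan8-, at 83.4 and 84.1 CPM, and Grhl1 is higher in all 4 Lgr5+ than in all 4 Lgr5- libraries.

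The Lgr5 comparison set Lgr5+ against Lgr5- libraries over both Tspan8 states. For H3K4me3, 0 of 9 factors were called, where 0.0421% of genes were called, and for H3K27me3 0 of 10, where 0.0407% of genes were called. DESeq2 called none for H3K4me3 (0.0187% of genes) and Grhl1 for H3K27me3, where it called 0.804% of the 8582 genes it gave an adjusted p, 7 of the 10 factors among them. At an unadjusted p under 0.05 the test held no factor for H3K4me3, among 946 genes (4.98% of those tested). For H3K27me3 it held Foxa1, Spdef and Grhl1, among 1590 genes (7.19%).

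Grhl1 came closest to the threshold of all factors and comparisons. Its H3K27me3 was 74.9, 85.8, 78.0 and 64.4 CPM in the 4 Lgr5+ libraries, against 55.6, 58.8, 46.3 and 42.1 CPM in the 4 Lgr5- libraries. The sides did not overlap, which held for 1 of 10 factors and for 3.62% of all genes tested. The Lgr5+ libraries averaged 75.8 ± 8.87 CPM and the Lgr5- libraries 50.7 ± 7.83 CPM (SD, n = 4 each). The log2 fold change was 0.59 ± 0.12 (edgeR adjusted p = 0.0706), the 19th smallest p of 22099. It passed in 6 of 13 alternatives, and over all 13 the log2 fold change ran from 0.53 to 0.66 and the adjusted p from 0.00631 to 0.802. The direction was opposite to that of genes rich in H3K27me3, whose top 10% had a median of -0.14 with Lgr5. Grhl1 is not among that top 10%, and the 18769 tested genes below it had a median of 0.01, with 47.7% below 0. H3K4me3 at Grhl1 averaged 48.3 ± 4.17 CPM over the Lgr5+ libraries and 48.5 ± 5.52 CPM over the Lgr5- libraries, a log2 fold change of 0.00 with a 95% interval of -0.34 to 0.35.

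Spdef and Foxa1 were at the other end. Spdef H3K27me3 was 14.3, 12.5, 21.0 and 16 CPM in the 4 Lgr5+ libraries, against 27.8, 21.3, 22.6 and 20.7 CPM in the 4 Lgr5- libraries, so the sides overlapped at 1 library. The log2 fold change was -0.54 ± 0.19 (edgeR adjusted p = 0.494). Foxa1 averaged 59.2 ± 10.7 CPM over the Lgr5+ libraries and 73.6 ± 11.8 CPM over the Lgr5- libraries (SD, n = 4 each), and its log2 difference was -0.31 ± 0.12 (edgeR adjusted p = 0.548). Cited1 at -0.27 and Gata3 at -0.12 were the other hormone-sensing factors, where 49.1% of all genes tested were above 0. Spdef, Foxa1 and Cited1 stayed below 0 in all 13 alternatives and Gata3 in 9 of 12, with up to 0.13 when 1 library was left out. All 16 Polycomb-silenced developmental factors were again below 0, with a median of -0.18, and 77.9% of the top 10% by H3K27me3 were; their part in these values was not tested.

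For H3K4me3 with Lgr5, 8 factors had log2 fold changes from -0.14 (Stat5a) to 0.14 (Elf3), and Spdef had 0.97 ± 0.85 (edgeR adjusted p = 0.995), which was 0.08 ± 1.14 without Lgr5+Tspan8hi replicate 1 (adjusted p = 1.000). No factor was without overlap in H3K4me3 in either comparison, where 3.08% of genes with Tspan8 and 2.84% with Lgr5 were.

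**Figure D5:**
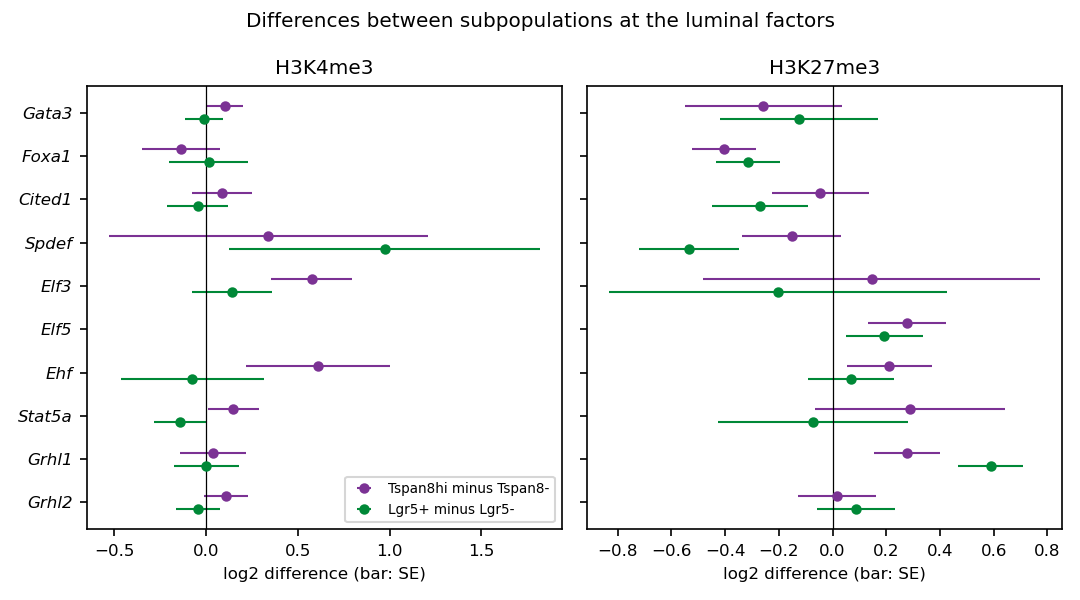
Log2 differences (x axis; bars, SE) of the 10 factors (rows) for H3K4me3 (left) and H3K27me3 (right), Tspan8hi minus Tspan8- in purple and Lgr5+ minus Lgr5- in green. Grhl1 stands farthest right in H3K27me3 with Lgr5 at 0.59 and Spdef farthest left at -0.54; Elf5 has no H3K4me3 value because it did not pass the filter.

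The interaction asked whether the Tspan8 difference changed with Lgr5. No factor was called in H3K4me3, where 0% of genes were called by edgeR (800 at an unadjusted p under 0.05, and 0 by DESeq2), or in H3K27me3, where 0.00905% of genes were called. The lowest p was at Gata3 for H3K27me3, whose mean was 11.2 CPM in Lgr5+Tspan8hi against 8.35 CPM in Lgr5+Tspan8-, and 7.46 CPM in Lgr5-Tspan8hi against 15 CPM in Lgr5-Tspan8- cells. The log2 interaction was 1.40 ± 0.58 (edgeR adjusted p = 0.857), and 0.73 ± 0.64 without Lgr5+Tspan8hi replicate 1 (adjusted p = 0.998). Ehf followed for H3K4me3, at 1.52 ± 0.79 (adjusted p = 1.000), and 0.63 ± 0.94 without that library.

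Among the other genes of the pathway lists, none was called in any of the 6 comparisons of this kind by edgeR among the family relatives (19 tested for H3K4me3 and 18 for H3K27me3), the other luminal regulators (20 and 19) and the luminal structural genes (16 and 16). Mef2c, a MADS-box factor of muscle and the only called basal transcription factor of 16, had a log2 fold change of 0.64 ± 0.11 in H3K27me3 with Tspan8 (edgeR adjusted p = 0.00484). Dcn, a fibroblast matrix gene and the only called fibroblast marker of 8, had one of -1.52 ± 0.24 in H3K4me3 with Lgr5 (adjusted p = 0.000146).

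The genes with the profile most like a factor were sought for the factor with the widest range of subpopulation means in each mark. For H3K4me3 that was Spdef, and over 8 libraries the closest were Ptafr, Ms4a6b and Ctss, with root mean square differences of 0.32, 0.42 and 0.44 in centred log2 CPM, beside 0.96 for Spdef's own spread around its mean. For H3K27me3 it was Elf3, with 1700001K23Rik, Ttll3 and Dapk3 at 0.27, 0.32 and 0.33, beside 0.75 for its own spread. These likenesses rest on low counts and on the same libraries.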

How the data were processed

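H3K4me3 and H3K27me3 ChIP-seq was carried out on chromatin sheared to 200 to 400 bp from sorted mammary basal cells, per the labels' protocols. The 24 samples are 16 immunoprecipitated libraries and 8 inputs; the inputs were not analysed here and no value is an enrichment over input. The authors deposited raw counts per Entrez gene for each library, with featureCounts and mm10 named in the submitters' processing notes. The sources used here do not give the aligner, the annotation or the region counted. The counts themselves bear on the region. Among 1671 pairs of genes with starts under 1 kb apart, 82.5% had H3K4me3 counts within 10% of each other, whereas mean counts tracked gene span at a Spearman's rho of 0.797 for H3K27me3 and 0.349 for H3K4me3 (across 25189 genes, which are not independent replicates).

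Symbols, coordinates and promoters came from RefSeq tables of GRCm38.p6, which gave a symbol to 25189 of 27080 identifiers. Each mark was fitted on its 8 libraries with edgeR 4.0.16 in R 4.3.3 (filterByExpr, TMM factors, a mean per subpopulation, robust quasi-likelihood F test, Benjamini-Hochberg adjustment over all tested genes, threshold 0.05). Replicate libraries differed by more than counting noise (chi-square per degree of freedom 3.07 to 5.91), and the biological coefficient of variation was 16% for H3K4me3 and 16.8% for H3K27me3. Contrasts were Tspan8hi minus Tspan8-, Lgr5+ minus Lgr5- and their interaction, and intervals are 1.96 SE either way. The fit was tested on simulated data. The members, lists and tests were chosen with earlier results of these data known. All 10 factors were named, with Tspan8, Lgr5 and 7 anchor genes, called list genes (up to 4), the ends of each compared list and the 3 genes most like the factor with the widest range; Elf5's promoter, the neighbouring genes, Ywhaz and the example genes of lists were named after their values were seen. Alternatives were DESeq2 1.42.0, RLE factors, loess offsets, no filter, the replicate number as a block and each library left out.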

Additional observations from a re-analysis of the deposited data

Results flagged for a closer look

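Of 80 groups of 4 libraries (10 factors, both marks, 4 sides of the comparisons), 8 had a highest library far from the other 3 relative to the range of the group. About 1 in 20 independent groups of like libraries would be so by chance. The groups here are not independent, since each library enters a Tspan8 side and an Lgr5 side, so the 8 cannot be set against that share. Lgr5+Tspan8hi replicate 1 accounted for 4 of the 8 flagged groups. Its H3K4me3 at Ehf, 25.4 CPM, stood apart from 8.97 to 11.7 CPM in the other Tspan8hi libraries and also from 6.10 to 8.97 CPM in the other Lgr5+ libraries. At Spdef its H3K4me3 was 12.7 CPM, against 0.780 to 2.25 CPM in the other Tspan8hi libraries. Its H3K27me3 at Gata3 was 15.4 CPM, against 6.76 to 8.16 CPM in the other Tspan8hi libraries. The same library had the highest summed H3K4me3 over luminal structural genes and the lowest over basal structural genes, and also the highest over milk protein genes (29.7 CPM, against 8.30 to 19.6 CPM in the other 7) and endothelial markers (114 CPM, against 57.3 to 90 CPM); their part in these values was not tested.

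The other 4 were in H3K27me3. Grhl2 had 47.7 CPM in Lgr5-Tspan8- replicate 1, against 34.2 to 36.4 CPM in the other Lgr5- libraries. Cited1 had 25.5 CPM in Lgr5-Tspan8- replicate 2, against 19.7 to 20.3 CPM in the other Tspan8- libraries. Stat5a had 5.41 CPM in Lgr5+Tspan8- replicate 2, against 3.96 to 4.15 CPM in the other Tspan8- libraries, and 7.70 CPM in Lgr5-Tspan8hi replicate 2, against 3.76 to 4.15 CPM in the other Lgr5- libraries.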

How the results depend on the processing

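No factor was called in the reported fits, so only a value called under an alternative could count as reversed past the threshold. None of the called values had changed sign. Of 725 alternative values for the factors 691 kept their side of the threshold and lay within the error, 25 moved further than the error and 9 became called (Grhl1 6 times and Foxa1 3 times, both in H3K27me3). In 81 of them, none called, the sign differed from that of the reported value. Counts of called genes were less stable, and the causes were not tested. For H3K4me3 with Lgr5 DESeq2 called 5 genes and edgeR 8. For H3K27me3 with Tspan8 the 74 called genes became 529 with DESeq2, 312 with no filter and 681 with the replicate block. With Lgr5 the 9 became 69 with DESeq2, 14 with loess offsets, 42 with no filter and 80 with the replicate block, and for the interaction the 2 became 12, 15 and 13 with DESeq2, no filter and the replicate block. Correlations of same-numbered deviations were weak, from -0.03 to 0.14 for H3K4me3 and from -0.01 to 0.12 for H3K27me3. Whether same-numbered libraries were prepared together was not tested. Under the block Grhl1 with Lgr5 (edgeR adjusted p = 0.00931) and Foxa1 with Tspan8 (edgeR adjusted p = 0.0315) were called. Grhl1 was also called with DESeq2, loess offsets, no filter and without Lgr5-Tspan8hi replicate 2 or Lgr5-Tspan8- replicate 1, and Foxa1 with DESeq2 and without Lgr5-Tspan8- replicate 1. Leaving out each library in turn gave 1 to 105 called genes for H3K4me3 with Tspan8, 1 to 13 with Lgr5 and 0 to 15 for the interaction, and for H3K27me3 13 to 1230, 3 to 160 and 0 to 109. The median H3K4me3 percentile of the factors, 58.3, was 48.4 among genes passing the filter. Their median H3K27me3 percentile, 64.1, was 75.3 for CPM without length and 76.9 for the span plus 5 kb, so their H3K27me3 rank depends on the region assumed. Depth limits the H3K4me3 of Elf5 and Spdef and the H3K27me3 of Elf3 most.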
